A study of Mus musculus with 4 samples.

Results

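The genes described here are 10 mural cell genes of the mouse Achilles tendon, which attaches the calf muscle to the heel: Acta2, Myh11, Tagln, Myl9, Cnn1, Des, Rgs5, Notch3, Kcnj8 and Abcc9. They were chosen by name, as contractile, signalling and channel genes known from mural cells in general, with earlier results of these data known. All 10 were found among the 15746 genes of the deposited count table. Single cells were sequenced by a droplet method that reads the 3′ end of transcripts and counts each captured molecule once by its unique molecular identifier (UMI). Achilles tendons of male C57Bl/6 mice aged 6 weeks gave 4 libraries of the same kind, with no treatment or other genotype named in the labels. The table held 1191 cells, with 580, 246, 256 and 109 cells in libraries 1, 2, 3 and 4, and the authors' annotation divides them into 13 named populations. Of these cells, 107 carry the name Pericytes: 55, 25, 11 and 16 in libraries 1 to 4.

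Mural cells wrap around the endothelium of blood vessels. Smooth muscle cells cover arteries and veins in contractile layers, and pericytes lie on capillaries and small venules. Contraction uses an actin and myosin apparatus that is controlled by calcium and by phosphorylation of a myosin light chain. The tone of these cells is also set by receptors coupled to G proteins and by potassium channels, among them an ATP-sensitive channel that opens when cellular energy falls, polarises the membrane and relaxes the cell.

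Acta2 encodes the smooth muscle actin and Myh11 the smooth muscle myosin heavy chain. Tagln encodes transgelin, an actin-binding protein, Myl9 a regulatory light chain of myosin, Cnn1 calponin, which binds actin and restrains myosin, and Des desmin, an intermediate filament of muscle cells. These are called the 6 contractile genes below. Rgs5 encodes a regulator that shortens G protein signals, and Notch3 a receptor through which endothelial ligands act on mural cells. Kcnj8 encodes the pore of the vascular ATP-sensitive potassium channel, and Abcc9 its sulfonylurea receptor subunit.

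Kcnj8 and Abcc9 are neighbours. In GENCODE vM21 (GRCm38), Kcnj8 lies on chromosome 6 from 142564837 to 142571614 and Abcc9 from 142587862 to 142702315, on the same strand, with 16247 bases and 0 protein-coding genes between them. The other members are spread over 6 chromosomes: Acta2 on 19 (34241090 to 34255590), Myh11 on 16 (14194535 to 14291372), Tagln on 9 (45929619 to 45936058), Cnn1 on 9 (22099216 to 22109630), Myl9 on 2 (156775420 to 156781658), Des on 1 (75360329 to 75368579), Rgs5 on 1 (169655501 to 169695813) and Notch3 on 17 (32120820 to 32166852). Tagln overlaps Pcsk7 on the opposite strand, and antisense genes overlap Tagln, Des, Notch3 and Abcc9. Whether the authors' counting used strand is not given in the sources used here.

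Contractile genes of smooth muscle are known targets of serum response factor, which binds a DNA element called the CArG box. Promoter windows from RefSeq (GRCm38.p6), 250 bases before the start site, were found for 8 members, with Myh11 and Tagln named only. The windows were searched on both strands for the CArG box (CC, 6 bases that are all A or T, GG) and for a looser form in which 1 of the 6 central bases may be G or C, and every exact match is also a looser one. The exact element occurs in 1.47% and the looser form in 8.59% of 32851 mouse promoter windows of this length. Acta2 and Myl9 held 2 looser matches each, and 1 of them in Myl9 was exact. No other member with a window, Cnn1 and Des among them, held a match of either form. The stretches below are printed for every looser match. Capitals mark the match, with 10 bases on either side, and the figures give the build's coordinates.
Acta2, minus strand, chr19:34255438-34255467: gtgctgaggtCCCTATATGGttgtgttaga
Acta2, minus strand, chr19:34255388-34255417: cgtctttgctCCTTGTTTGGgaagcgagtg
Myl9, plus strand, chr2:156775293-156775322 (exact): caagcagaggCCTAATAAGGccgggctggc
Myl9, plus strand, chr2:156775355-156775384: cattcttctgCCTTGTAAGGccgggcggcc
The matches begin 84 and 34 bases before the RefSeq start site in Acta2 and 161 and 99 bases before it in Myl9. The RefSeq start of Acta2 lies 217 bases inside the GENCODE gene given above, so both Acta2 stretches fall within that gene span, and the RefSeq start of Myl9 lies 44 bases inside, with both stretches outside the span. Notch signals reach DNA through the factor RBPJ. Its core letters TGGGAA occurred in the windows of Acta2 and Abcc9, against 21.6% of all windows. A match of letters shows neither a bound site nor a cause.

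All 10 genes had their highest mean level over libraries in cells labelled Pericytes, but for Abcc9 this order rested on library 3: without it, Pericytes stood at 84.9 and tendon fibroblasts 3 at 135 in the unit defined next. The level is the UMI count of a gene per 1000000 UMIs (CPM) in the summed cells of a library, for sums of 5 or more cells. As a comparison, 10.2% of all genes were highest in Pericytes among populations with 2 or more libraries. The authors derived the population names from these very counts, and the members are known mural genes, so the levels are given as a description, with no test. The name itself was compared with further markers. Pdgfrb, the growth factor receptor of mural cells, stood at 706 ± 270 CPM (SD, n = 4 libraries) and in 93.5% of the cells, and was highest in this population. Cspg4, another pericyte marker, stood at 227 ± 21.4 CPM, below nerve cells 3 at 511. Of 28 other smooth muscle genes in a list, 24 were highest in Pericytes, with Mylk, the kinase of the myosin light chain, at 1772 ± 571 CPM. Of 19 pericyte genes found in the table, 11 were highest there. The lists here and below were chosen with earlier results of these data known, so their counts are no independent check. Acta2 was found in 103 and Myh11 in 104 of the 107 cells, so the deposited name covers cells that almost all held smooth muscle transcripts.

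**Figure D1:**
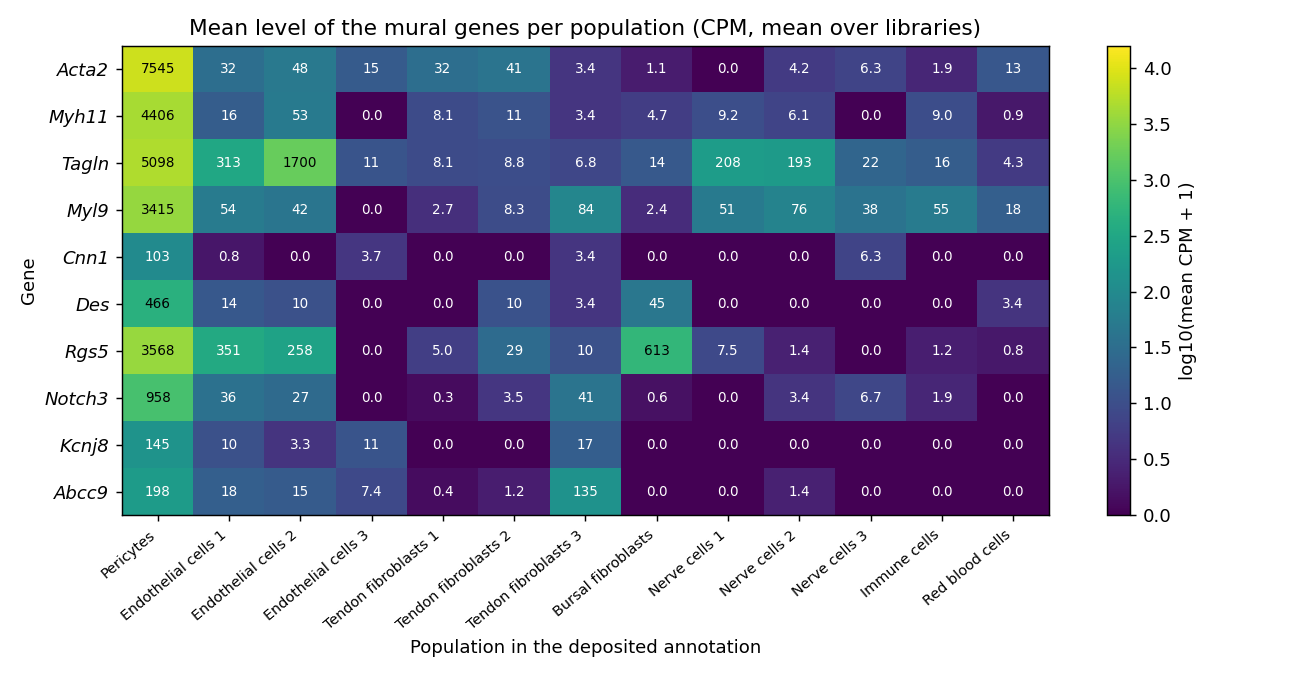
Mean level of each gene in each deposited population, in CPM averaged over libraries with 5 or more cells (numbers), coloured on a log10 scale. Rows are genes and columns populations. Pericytes hold the highest value in every row (for Abcc9 only with library 3). The highest values elsewhere are Tagln in endothelial cells 2 (1700), Rgs5 in bursal fibroblasts (613) and Rgs5 in endothelial cells 1 (351).

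Except for Des, the contractile genes differed between libraries. Acta2 stood at 9149, 11284, 2554 and 7195 CPM in the Pericytes of libraries 1, 2, 3 and 4. Myh11 stood at 5789, 6262, 1600 and 3975 CPM, and Tagln at 5987, 6886, 2568 and 4951 CPM. Library 3 was lowest and library 2 highest for all 3 genes, and their exact 95% Poisson intervals did not touch (Acta2 2204 to 2945 in library 3 and 10931 to 11645 in library 2). Myl9 stood at 3454, 5547, 1506 and 3154 CPM and Cnn1 at 127, 195, 13.4 and 75.1 CPM, in the same order of libraries. Cnn1 rested on 1 UMI in library 3 and on 155 UMIs in all Pericytes. Des varied less, with 519, 496, 350 and 499 CPM, and its intervals overlapped in all 4 libraries. Some Pericytes held 2 or more UMIs of the endothelial genes Pecam1 and Cdh5. In library 4, 2 such cells held 35034 and 48327 of the 226404 UMIs. With such cells left out of every library, Acta2 stood at 11496, 12013, 4037 and 11311 CPM in libraries 1 to 4. Library 4 was then close to libraries 1 and 2. Library 3 was still lowest for Acta2, Myh11, Tagln, Myl9 and Cnn1, but for Des it lay above libraries 1 and 2.

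Rgs5 and the channel genes ran the other way. Rgs5 stood at 1672, 2386, 7005 and 3211 CPM in libraries 1 to 4. Kcnj8 stood at 23.6, 55.4, 430 and 70.7 CPM and Abcc9 at 27.2, 81.7, 538 and 146 CPM. Library 3 was highest for all 3 genes, from 11 cells with a median of 5593 UMIs, against 8326, 11769 and 10418 UMIs in the Pericytes of libraries 1, 2 and 4. Without library 3 the means were 2423 CPM for Rgs5, 49.9 for Kcnj8 and 84.9 for Abcc9, against 3568 ± 2376, 145 ± 191 and 198 ± 232 with it (SD, n = 4). Kcnj8 and Abcc9 without library 3 were thus lower by over 1.5 times. Notch3 differed little, with 1004, 1108, 914 and 804 CPM. The libraries are of 1 kind, so these differences belong to no comparison of the design; the Pericytes made up 9.48%, 10.2%, 4.30% and 14.7% of the cells of libraries 1 to 4.

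**Figure D2:**
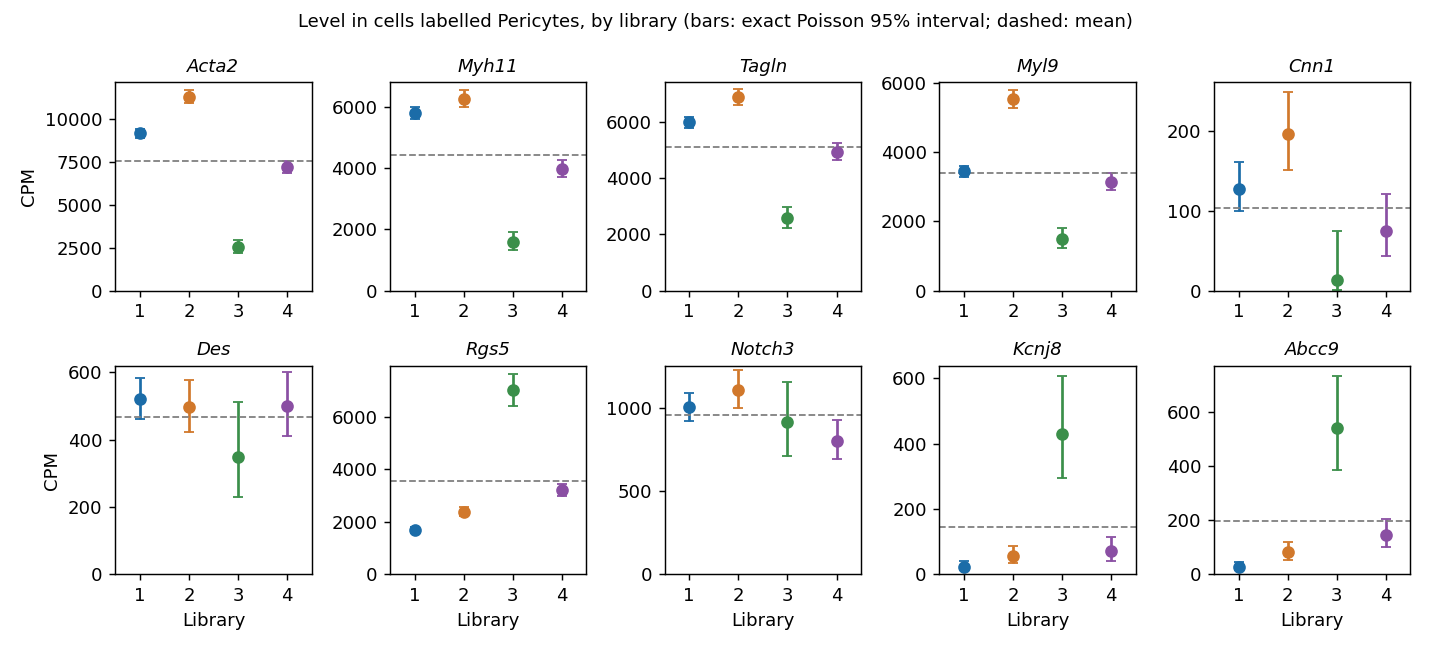
Level of each gene in the cells labelled Pericytes of each library, in CPM on axes from 0, with exact 95% Poisson intervals that cover counting error only and the mean as a dashed line. Library 3, with 11 cells, is lowest for the 6 contractile genes and highest for Rgs5 (7005), Kcnj8 (430) and Abcc9 (538). Without the cells with 2 or more UMIs of Pecam1 and Cdh5 (not drawn), library 3 was no longer lowest for Des.

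The next populations in order differed from gene to gene. For 7 members, the lowest Pericytes library lay above every library of every other population with 2 or more libraries, against 1.05% of all genes. The 3 exceptions were Tagln, Cnn1 and Abcc9. For Kcnj8 the gap was narrow, with 23.6 CPM (13 UMIs) in the lowest Pericytes library against 22.6 CPM in a library of endothelial cells 1.

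Pericytes held 97.5% of the Acta2 and 97.7% of the Myh11 UMIs over the 4 libraries. In library 3, which had 11 Pericytes, they held 65.3% of the Acta2 and 90.2% of the Myh11 UMIs, against 96.8% or more in each other library. Acta2 reached 48.4 CPM in endothelial cells 2, the next population, and Myh11 53.0 CPM. An Acta2 UMI was nonetheless found in 35 of 173 tendon fibroblasts 1 (20.2%) and 45 of 156 tendon fibroblasts 2 (28.8%). After every cell was thinned to 2400 UMIs, these shares were 7.45% and 5.41%, against 92.3% of Pericytes and 1.89% of red blood cells, which served as the background from free RNA. Median depths before thinning were 8824, 10662, 9188 and 4132 UMIs. Pericytes held 97.5% of Cnn1 UMIs and 93.7% of Myl9 UMIs. Outside them, Myl9 was found in 23 of 46 nerve cells 2 and in 17 of 51 tendon fibroblasts 3.

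Tagln was the widest of the contractile genes. Pericytes held 76.6% of its UMIs, and endothelial cells 2 stood at 1327, 1300, 1446 and 2729 CPM in libraries 1 to 4. The Pericytes of the same library were higher in each of the 4 libraries, at 5987, 6886, 2568 and 4951 CPM. The ranges over libraries overlapped, because library 4 of endothelial cells 2 lay above library 3 of Pericytes. Tagln was found in 59 of 74 endothelial cells 2, and in 69.6% of them after thinning, against 31.8% of endothelial cells 1 and 0.943% of red blood cells. In endothelial cells 1 it stood at 313 CPM. Nerve cells 1 stood at 208 CPM and nerve cells 2 at 193 CPM.

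Des had 83.1% of its UMIs in Pericytes. Bursal fibroblasts, from the fluid-filled pad beside the tendon, came next at 45.2 CPM, with a UMI in 16 of 40 cells. Their median depth was 20284 UMIs, and after thinning the share was 8.11%, against 62.5% of Pericytes and 0.943% of red blood cells.

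**Figure D3:**
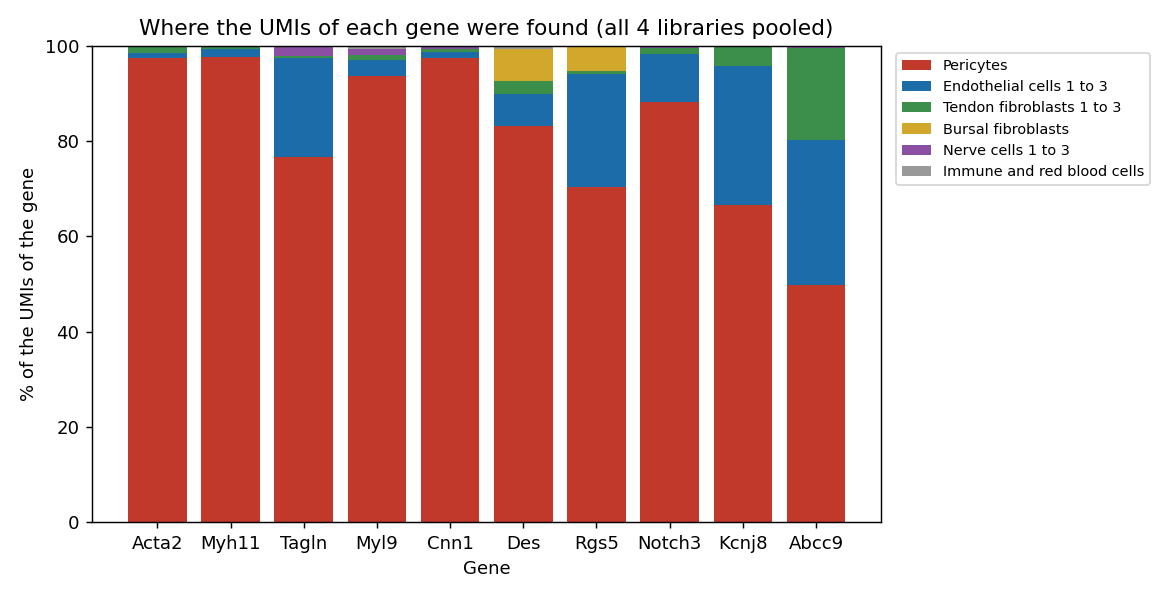
Share of the UMIs of each gene found in each class of cells, in percent of that gene's UMIs over the 4 libraries. Bars run from 0 to 100; Pericytes hold 97.5% for Acta2, 76.6% for Tagln, 70.3% for Rgs5 and 49.8% for Abcc9.

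Rgs5 outside Pericytes sat in few cells. Pericytes held 70.3% of its UMIs, bursal fibroblasts stood at 613 CPM, endothelial cells 1 at 351 and endothelial cells 2 at 258 CPM. The bursal value came from 217 UMIs in 6 of 40 cells, and 4 cells with 10 or more UMIs held 94.5% of them. Library 1 of bursal fibroblasts had 0 Rgs5 UMIs in 30 cells, whereas libraries 3 and 4 stood at 1026 and 812 CPM with 5 cells each. In the whole table, 20 cells outside Pericytes held 10 or more Rgs5 UMIs: 12 endothelial cells 1, 4 endothelial cells 2 and 4 bursal fibroblasts. They held 84.8% of the Rgs5 UMIs found outside Pericytes, a share raised by picking the cells on Rgs5. Of the UMIs there they also held 77.8% for Notch3, 67.5% for Kcnj8, 63.8% for Myh11 and 53.8% for Abcc9. The shares were lower for the other contractile genes: 36.4% for Des, 27.5% for Myl9, 17.5% for Acta2, 14.4% for Tagln and 0% for Cnn1. The 20 cells had a median depth of 21475 UMIs, against 7345 in the other cells outside Pericytes. A cut on raw UMIs favours deep cells. Of the 20 cells, 16 also held 2 or more UMIs of the endothelial genes Pecam1 and Cdh5. These were the 12 endothelial cells 1 and the 4 endothelial cells 2, where such UMIs go with the name. Of the 4 bursal fibroblasts 0 did. No doublet caller was run here, and whether the 20 barcodes hold more than a single cell was not tested.

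Abcc9 had 49.8% of its 233 UMIs in Pericytes over the 4 libraries, and 12.8%, 93.3%, 95.2% and 75.0% in libraries 1 to 4, so the low pooled share came from library 1. With the UMIs of the libraries pooled, it stood at 111 CPM in tendon fibroblasts 3 and at 97.1 CPM in Pericytes. Tendon fibroblasts 3 held 41 UMIs in 17 of 51 cells. In library 1, which gave 45 of these cells, Abcc9 stood at 135 CPM (95% interval 96.5 to 184) against 27.2 CPM (15.2 to 44.9) in the Pericytes of the same library. Tendon fibroblasts 3 reached 5 cells in that library only, so the difference has no replicate. Kcnj8, the pore gene, had 5 UMIs in the 51 cells and stood at 16.9 CPM in library 1, against 23.6 CPM in Pericytes there. After thinning, Abcc9 was found in 21.7% of tendon fibroblasts 3, 15.4% of Pericytes and 0 of 106 red blood cells (at most 2.83%, from a limit of 3 cells). In endothelial cells 1 and 2, the cells with 10 or more Rgs5 UMIs held 87.0% and 100% of the Abcc9 UMIs. Kcnj8 had 66.7% of its 120 UMIs in Pericytes, with 32.5%, 90.5%, 97.0% and 61.5% in libraries 1 to 4. Before thinning it was found in 6 of 36 endothelial cells 3 (16.7%) and 22 of 107 Pericytes (20.6%). After thinning the order turned, with 5 of 32 endothelial cells 3 (15.6%, 95% interval 5.28 to 32.8) and 10 of 104 Pericytes (9.62%, 4.71 to 17.0). These intervals overlapped, and the endothelial cells 3 held 7 Kcnj8 UMIs in all. Notch3 had 88.2% of its UMIs in Pericytes, which stood at 958 ± 130 CPM. Tendon fibroblasts 3 stood at 40.5 CPM in library 1 (12 UMIs). Among populations with 2 or more libraries, endothelial cells 1 came next at 36.1 CPM.

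Cells labelled Pericytes were not alike in these genes. A UMI of Kcnj8 or Abcc9 was found in 32 of 107 cells: 20 held UMIs of both, 10 of Abcc9 alone and 2 of Kcnj8 alone. By library these were 9 of 55, 9 of 25, 8 of 11 and 6 of 16 cells. Red blood cells held 0 UMIs of both genes in 145 cells. The 32 cells had a median of 6589 CPM of Rgs5 (range 0 to 22873) and the 75 others a median of 394 (0 to 9656). Acta2 had medians of 2458 and 9885 CPM, and Myh11 of 1445 and 6917 CPM, in the same order. The ranges overlapped for all 3 genes. Median depth was 9660 and 8963 UMIs. The classes rest on few UMIs per cell, so a cell without a UMI of the channel genes may still express them.

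Endothelial transcripts were present in some of these cells. Of the 107 cells, 16 held 2 or more UMIs of Pecam1 and Cdh5 (9, 3, 2 and 2 in libraries 1 to 4; 2 to 80 UMIs per cell), with a median depth of 19087 UMIs against 8717 in the other 91. Of these 16 cells, 7 were among the 32 with a channel UMI. The 16 cells held 41 of the 80 Kcnj8 and 47 of the 116 Abcc9 UMIs found in Pericytes. Across cells, the normalised sum of the 6 contractile genes and that of Rgs5, Notch3, Kcnj8 and Abcc9 had a Pearson correlation of -0.62 over all 107 cells and -0.66 over the 91 without endothelial UMIs. Within the contractile genes, Acta2 correlated with Tagln at 0.88, Myl9 at 0.83 and Myh11 at 0.79, and with Des at 0.09. Kcnj8 correlated with Abcc9 at 0.81 and with Rgs5 at 0.58. Notch3 correlated with Myh11 at 0.26, Myl9 at 0.24, Des at 0.20, Acta2 at 0.05, Tagln at 0.03 and Cnn1 at -0.11, and with Rgs5 at 0.08, Abcc9 at -0.06 and Kcnj8 at -0.14. These correlations describe cells that share libraries and depth, and no p-value is given.

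**Figure D4:**
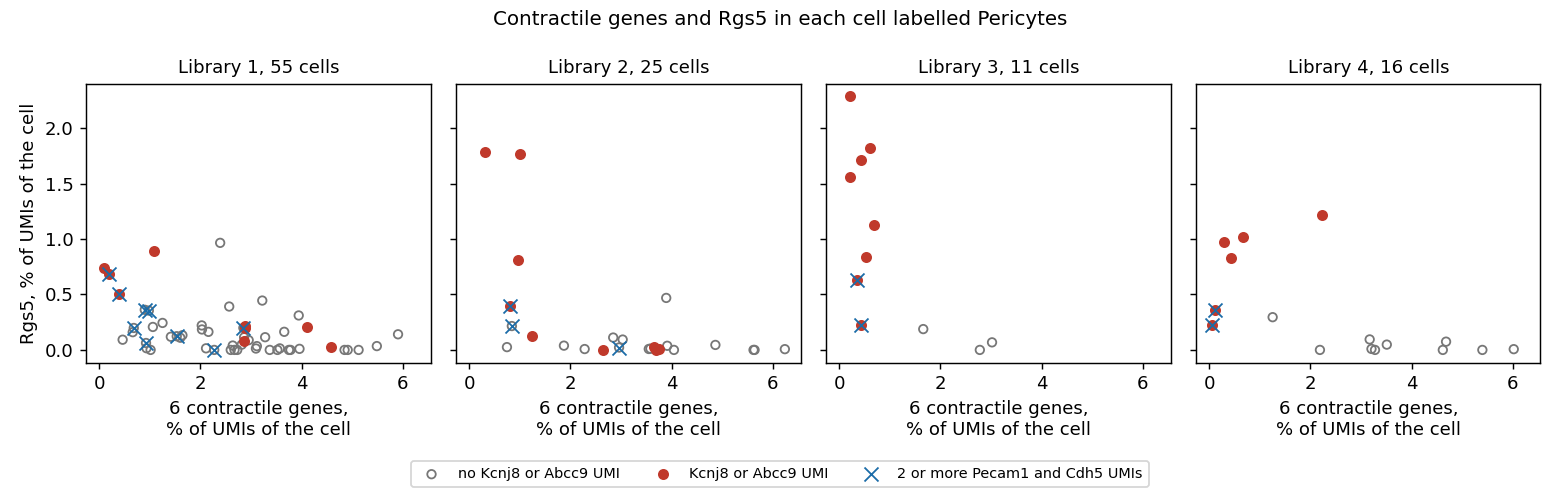
Each point is a cell labelled Pericytes, by library: the share of its UMIs from the 6 contractile genes (x axis, percent) against that from Rgs5 (y axis, percent). Filled points hold a UMI of Kcnj8 or Abcc9 (9, 9, 8 and 6 cells) and crosses mark the 16 cells with 2 or more UMIs of Pecam1 and Cdh5; in library 3, all 8 filled points lie at low contractile shares.

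The genes most like the contractile sum over the 107 cells, among 5767 genes found in 20% or more of them, were Tpm1 (Pearson correlation 0.90), Dstn (0.86), Tpm2 (0.85), Flna (0.84) and Ppp1r12b (0.82). Tpm1 and Tpm2 encode tropomyosins, which lie along actin filaments, Dstn an actin-severing protein, and Flna a filamin that crosslinks actin. Those most like the sum of Rgs5, Notch3, Kcnj8 and Abcc9 were Steap4 (0.71), Meg3 (0.69), Sparc (0.65), Col5a3 (0.64) and Cygb (0.62). Sparc encodes a matrix glycoprotein, Col5a3 a fibrillar collagen chain and Cygb a globin found in the cytoplasm.

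To ask which members go with the smooth muscle myosin, the Pericytes of every library were split at the library's median share of Myh11 UMIs, giving 52 Myh11-high and 55 Myh11-low cells with median depths of 9134 and 9225 UMIs. The groups are ranges and not cell types: 18 of 55, 8 of 25, 3 of 11 and 2 of 16 cells lay within 20% of the cut, and in library 1 the nearest cells stood at 6169 and 6245 CPM of Myh11. Myh11 defined the groups and was not tested. Summed UMIs were compared with edgeR's quasi-likelihood test, the library as a block and Benjamini-Hochberg adjustment over 2800 genes. The labels do not say whether the libraries come from separate mice, so the p-values measure the spread between these libraries. In Myh11-high cells 109 genes were higher (3.89%) and 147 lower (5.25%). Of the other 9 members, 8 passed the filter on low counts, and 5 of them were higher and 2 lower, against 9.14% of all genes in either direction. The filter removed Kcnj8.

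Acta2 stood at 13109, 15362, 6252 and 16137 CPM in the Myh11-high cells of libraries 1 to 4 and at 6023, 7338, 929 and 1805 CPM in the Myh11-low cells. It was higher in 4 of 4 libraries, by 2.01 ± 0.36 on the log2 scale (fitted value ± SE, edgeR adjusted p = 0.00549), although the ranges overlapped between libraries. Tagln stood at 7852, 9140, 5327 and 10429 CPM against 4516, 4705, 1355 and 1649, so the groups did not overlap, and the difference was 1.60 ± 0.31 (edgeR adjusted p = 0.00863). Myl9 was higher by 1.76 ± 0.31 and Cnn1 by 2.12 ± 0.39, with edgeR adjusted p of 0.00542 and 0.00748. Des stood at 716, 593, 616 and 893 CPM against 364, 402, 232 and 262, a difference of 1.16 ± 0.25 (edgeR adjusted p = 0.016) with no overlap. The contractile genes that were tested were thus all higher, each in 4 of 4 libraries. Deep cells weigh more in these sums. In library 3, 2 Myh11-low cells with endothelial UMIs held 15785 and 20196 of the 51665 UMIs summed from 6 cells. In library 4, 2 such cells held 35034 and 48327 of 141256 UMIs from 8 cells. The 6 contractile genes made up 0.421% or less of the UMIs of each, so these cells pulled down the Myh11-low values of libraries 3 and 4.

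Rgs5 and Abcc9 were lower in Myh11-high cells. Rgs5 stood at 1025, 219, 5679 and 247 CPM in Myh11-high cells and at 2183, 4481, 7587 and 4998 CPM in Myh11-low cells. The value was lower in 4 of 4 libraries, with a log2 difference of -2.39 ± 0.61 (edgeR adjusted p = 0.0297). In library 3 both groups were high, and the ranges overlapped there. Abcc9 had 15 UMIs in Myh11-high and 101 in Myh11-low cells, a log2 difference of -2.07 ± 0.50 (edgeR adjusted p = 0.0247). Kcnj8, not tested, had 2 and 78 UMIs. The 16 cells with endothelial UMIs, 15 of them Myh11-low, held 41 of these Kcnj8 UMIs. Notch3 stood at 1239, 1163, 1277 and 928 CPM against 819, 1056, 755 and 729, and its difference of 0.48 ± 0.21 did not pass (edgeR adjusted p = 0.204). Rgs5 lost its call without library 1 (edgeR adjusted p = 0.0686) or library 2 (0.2) and without the library block (0.24), as did Abcc9 (0.0858, 0.165 and 0.124). Acta2 lost its call without library 3 (0.0534) and without the block (0.0572), Tagln without library 2 (0.0524) or library 3 (0.065), and Des without library 1, 2 or 3 (0.0858, 0.0526 and 0.0534).

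**Figure D5:**
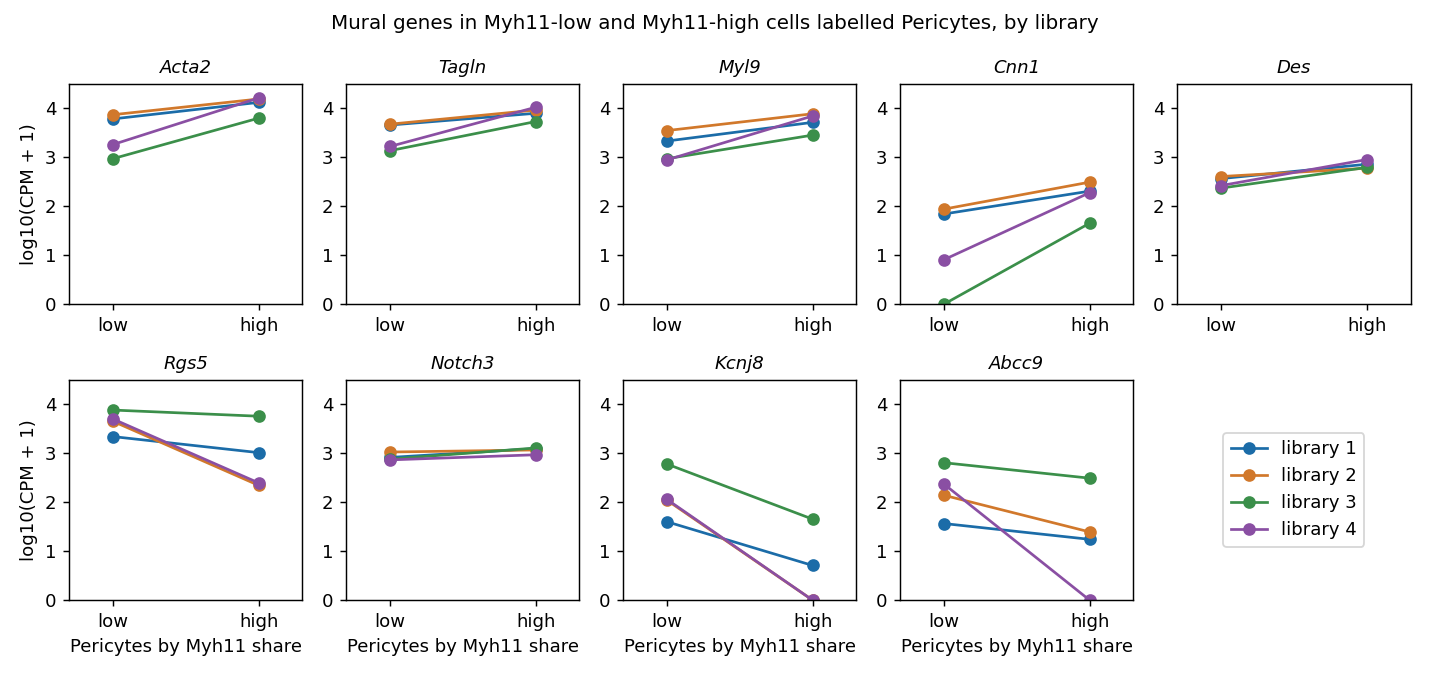
Level of the 9 genes other than Myh11 in Myh11-low and Myh11-high cells labelled Pericytes, as log10(CPM + 1), with a line for each of the 4 libraries. Lines rise for Acta2, Tagln, Myl9, Cnn1, Des and Notch3 and fall for Rgs5, Kcnj8 and Abcc9 in every library; Notch3 did not pass the test and Kcnj8 was not tested.

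Endothelial transcripts moved with this split. Of the 16 cells with endothelial UMIs, 15 were Myh11-low. The summed level of 8 endothelial markers had a median of 5.87 CPM over libraries in Myh11-high cells (0 to 28.8, with Emcn, Kdr and Tie1 at 0) and of 1616 CPM in Myh11-low cells (1148 to 3116). The 4 endothelial markers that passed the filter, Pecam1, Cdh5, Egfl7 and Cldn5, were all lower in Myh11-high cells. Markers of tendon fibroblasts stood at 862 and 1431 CPM, of nerve at 39.0 and 27.5, of immune cells at 20.3 and 15.4, of red blood cells at 199 and 272 and of skeletal muscle at 81.8 and 47.9 CPM, in Myh11-high and Myh11-low cells, and of 4 genes of these 5 lists that were tested 0 passed (1 at an unadjusted p under 0.05, 0 in DESeq2). The 10 genes with the largest falls were Adgrl4, Ly6c1, Sox17, Thbd, Rasip1, Flt1, Cdh5, Pecam1, Ly6a and Egfl7, most of them known endothelial genes. Pecam1 had 3 UMIs in Myh11-high and 310 in Myh11-low cells, and Adgrl4, Sox17, Thbd and Rasip1 had 0 against 110, 77, 76 and 65.

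The split was therefore repeated without the 16 cells, with sums of 3 or more cells so that every library entered, an alternative added after the data were seen. Of 1673 genes tested, 18 were higher (1.08%) and 30 lower (1.79%), and 13 and 21 of these were among the genes called with all cells. Acta2 (1.47, edgeR adjusted p = 0.0365) and Myl9 (1.24, 0.0197) were still higher, and Rgs5 (-3.22, 0.0197) and Abcc9 (-2.58, 0.0252) still lower. Tagln (1.24, edgeR adjusted p = 0.0754), Cnn1 (1.19, 0.254) and Des (0.62, 0.163) no longer passed. Notch3 stood at 0.10 (edgeR adjusted p = 0.918). Col1a1, a tendon fibroblast marker that did not pass with all cells, was lower in the Myh11-high cells (-2.13, edgeR adjusted p = 0.00323), in the same direction as Rgs5 and Abcc9.

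Other smooth muscle genes went with Myh11. Of 28 listed, 23 were tested, and 11 were higher and 0 lower, with a median log2 difference of 1.32 against -0.03 over all genes tested. Mylk was higher by 1.69 ± 0.35, Tpm2 by 2.05 ± 0.33, Lmod1, which starts actin filaments, by 1.64 ± 0.32, and Pln, an inhibitor of the calcium pump, by 1.99 ± 0.52. The other 7 were Synpo2, Smtn, Tpm1, Map3k7cl, Flna, Synm and Csrp1. Without those cells and with sums of 3 or more cells, 3 of 20 passed (Mylk, Flna and Csrp1), at a median of 0.86. Among the largest rises were also Cpxm2 (2.40 ± 0.42), Adamtsl1 (2.34 ± 0.43), Igfbp5 (2.14 ± 0.47), which encodes a binding protein of insulin-like growth factors, Nkd1 (2.11 ± 0.41), an inhibitor of Wnt signals, Fbxl22 (2.06 ± 0.47) and Myom1 (1.90 ± 0.35), a sarcomere protein. Without the cells with endothelial UMIs and with sums of 3 or more cells, none of these 6 was called: Adamtsl1, Igfbp5, Fbxl22 and Myom1 stood between 0.87 and 1.61 with edgeR adjusted p between 0.0647 and 0.207, and Cpxm2 and Nkd1 were too low to be tested. Tpm2 (1.40, 0.0717), Lmod1 (0.89, 0.108) and Pln (1.40, 0.0536) did not pass either.

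Pericyte genes split. Of 11 tested, Gucy1a1, a subunit of the nitric oxide receptor, was higher by 0.95 ± 0.26 and Rgs4 by 1.04 ± 0.28, and Steap4, a metalloreductase, was lower (-2.98 ± 0.60, 24 against 280 UMIs). Pdgfrb stood at -0.83 ± 0.27 and did not pass with all cells (edgeR adjusted p = 0.0796). Without the cells with endothelial UMIs and with sums of 3 or more cells, Pdgfrb (-1.22, edgeR adjusted p = 0.0239) and Steap4 (-3.90, 0.00779) were lower, while Gucy1a1 (0.27, 0.555) and Rgs4 (0.32, 0.52) did not pass. Of the other regulators of G protein signalling, 4 were tested: Rgs4 was higher and Rgs16 lower, with 1 against 114 UMIs, and without the cells with endothelial UMIs Rgs16 was too low to be tested. Of 13 genes of the Notch pathway 7 were tested and 0 passed (2 at an unadjusted p under 0.05, 0 in DESeq2), with Hes1, a target of Notch signals, at 0.22 ± 0.23 and the ligand Jag1 at 0.03 ± 0.30. Kcnj11 and Abcc8, the paralogs that form the channel of pancreatic beta cells, and 4 related genes were too low to be tested. Of 12 genes that respond to tissue dissociation, Hspa1a and Hspa1b were lower in Myh11-high cells and 0 were higher, and DESeq2 called 1 of the 12. Without the cells with endothelial UMIs and with sums of 3 or more cells, neither passed (edgeR adjusted p = 0.39 and 0.173), and Atf3 was higher (1.44, 0.0209).

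The same cells were then split by the summed share of Kcnj8 and Abcc9 UMIs, so this comparison is not independent of the one above. It gave 29 channel-high and 78 channel-low cells, and 2073 genes were tested. Median depths were 9721 and 8846 UMIs, and 6 channel-high and 10 channel-low cells held endothelial UMIs. A split on genes with few UMIs favours deep cells. Kcnj8 and Abcc9 were not tested; 2 genes were higher (0.0965%) and 0 lower (0%), with 254 at an unadjusted p under 0.05, and DESeq2 called 25 higher and 2 lower. Of the 8 members tested 0 passed, 5 had an unadjusted p under 0.05, and DESeq2 called Rgs5 among them. Rgs5 was higher in 4 of 4 libraries, at 6214 ± 3406 CPM in channel-high and 1475 ± 1374 CPM in channel-low cells (SD, n = 4). Its log2 difference of 2.32 ± 0.38 did not pass (edgeR adjusted p = 0.131), but did so in DESeq2 (adjusted p = 3.51e-05), in edgeR without library 4 (0.0358) and in edgeR without the cells with endothelial UMIs and with sums of 3 or more cells (0.0368).

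The contractile genes had the opposite sign. Acta2 stood at 4357 ± 3594 CPM in channel-high and 10451 ± 4958 CPM in channel-low cells, with a log2 difference of -1.59 ± 0.49 (edgeR adjusted p = 0.344). Myh11, Tagln, Myl9 and Cnn1 had differences between -1.19 and -1.57, with edgeR adjusted p between 0.354 and 0.405. These 5 genes were lower in 4 of 4 libraries. Des (-0.41 ± 0.42) and Notch3 (0.09 ± 0.29) were higher in 2 and lower in 2 libraries. In library 4, 2 channel-high cells with endothelial UMIs held 35034 and 48327 of the 126114 UMIs summed from 6 cells. Acta2 stood at 1451 CPM in that sum. Without the cells with endothelial UMIs and with sums of 3 or more cells, Acta2 stood at -1.31 (edgeR adjusted p = 0.101).

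The 2 genes called were matrix genes. Postn, the matricellular protein periostin, was higher by 3.51 ± 0.39 (edgeR adjusted p = 0.0257), at 271 ± 128 CPM against 19.1 ± 8.11. Col1a1, a chain of type I collagen, was higher by 2.11 ± 0.26 (edgeR adjusted p = 0.0273), at 718 ± 228 CPM against 167 ± 73.4. Both were higher in 4 of 4 libraries. The call was lost for both without library 1, 2 or 3, where 0 genes passed. Col1a1 is also a tendon fibroblast marker. The summed 8 markers of these fibroblasts had medians of 1628 CPM (1387 to 2023) in channel-high and 738 CPM (573 to 1068) in channel-low cells, and their part in the result was not tested. The 8 endothelial markers stood at 1499 and 651 CPM. Without the cells with endothelial UMIs and with sums of 3 or more cells, an alternative added after the data were seen, 14 of 1483 genes were higher (0.944%) and 0 lower: Postn, Col1a1, Col3a1, Col5a2, Col6a1, Col6a2, Sparc, Sdc1, Angptl2, Ccdc141, Cd36, Fhl1, Steap4 and Rgs5. Of the other lists, smooth muscle (22 tested, median -1.05), pericyte (12, -0.10), Notch pathway (5, -0.30), G protein regulators (3, -0.45) and dissociation response (12, -0.22) had 0 genes called, against a median of 0.00 over all genes. At an unadjusted p under 0.05 these lists had 10, 4, 1, 1 and 0 genes, and DESeq2 called 1, a pericyte gene.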

How the data were processed

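The members and gene lists were chosen with earlier results of these data known. Per the labels, libraries were made with the 10x Chromium 3′ version 3 kit. Per the submitters' processing notes, Cell Ranger, Seurat 2.3.4, R 3.5.2 and build mm10 were used; the cell filters and annotation version are not given in the sources used here. The authors deposited raw UMI counts per gene and cell and a table naming each cell's library and population. Of 15750 entries, 4 with repeated names (0.0186% of UMIs) were left out; 0 barcodes were shared between libraries, and no doublet caller was run. The libraries held 5603366, 2252390, 2269014 and 1375111 UMIs.

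Counts were summed per library and group (5 or more cells, 3 or more libraries) and tested in edgeR 4.0.16 (R 4.3.3; TMM, filterByExpr, library as block, Benjamini-Hochberg, adjusted p under 0.05), with DESeq2 1.42.0 as an alternative. Both sums come from 1 library's cells, which is the pairing; correlations of their deviations ran from -0.11 to 0.22 (Myh11 split) and -0.23 to 0.28 (channel split). Thinning used 2400 UMIs (114 cells were shallower, 3 of them Pericytes). Intervals are exact at 95% and cover counting error only. Named genes are the members, the 10 largest called changes each way in every library with 100 or more CPM, list genes that passed, and the 5 most correlated genes. Python 3.11.15, numpy 2.4.6, pandas 2.3.3 and scipy 1.17.1 were used.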

Additional observations from a re-analysis of the deposited data

Results flagged for a closer look

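In 9 cases, the highest or lowest of 4 libraries lay farther from the rest than Dixon's 95% limit for 4 values. Chance alone would mark about 1 in 20 groups of independent, normally distributed values. The 9 cases cannot be set against that rate, because the number of groups looked at is not given. Some had 0 in every other library, and those of library 1 come from the same 30 cells. In endothelial cells 2, library 1 was high for Myh11 (175.4 CPM), Myl9 (99.5), Rgs5 (806.1), Notch3 (109.9) and Abcc9 (60.2). The 3 highest cells held 83.6% of the Myh11, 94.7% of the Myl9, 92.2% of the Rgs5, 83.3% of the Notch3 and 95.7% of the Abcc9 UMIs of those 30 cells. In the same population, library 4 was high for Tagln (2729 CPM, from 8 cells, 7 with a UMI). Among Pericytes, library 3 was low for Des (349.6 CPM) and high for Kcnj8 (430.2 CPM). There, 2 cells with endothelial UMIs held 15785 and 20196 of the 74379 Pericytes UMIs. Without the cells with endothelial UMIs, Des in library 3 was no longer lowest and lay above libraries 1 and 2 (575.6 and 524.7 CPM). Kcnj8 in library 3 fell from 32 to 11 UMIs and stood at 286.5 CPM, still the highest. Whether Kcnj8 would still be marked was not tested. In red blood cells, Myl9 stood at 70.4 CPM in library 2, where 1 cell held 20 of 21 UMIs, and was at 0 in the other 3 libraries.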

How the results depend on the processing

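With Myh11 as the splitting gene, 256 of 2800 genes tested were called (9.14%). The count was 95 without cells with endothelial UMIs, where library 3 dropped out, 48 with sums of 3 or more cells as well, 614 with no filter on low counts, 395 with one cut over all libraries, which also left library 3 out, 51 after thinning, which left 316 genes to test (16.1%), and 50 to 236 with each library left out in turn (91 without library 1, 50 without library 2, 156 without library 3). Without the replicate block it was 210. The split by the channel genes called 2 genes, 27 in DESeq2, 14 without cells with endothelial UMIs and with sums of 3 or more cells, 167 with no filter, 3 without the replicate block, and 0 to 3 with a library left out. With any UMI against none or a cut over all libraries, 0 were called. Library 3 then dropped out, so both had the same groups of cells as the split without library 3. They are 1 fit and not separate checks. In the channel split Des ran from -0.77 to 0.13 with a library left out (0.13 without library 4), and Notch3 from -0.10 to 0.32. Notch3 turned to -0.10 without library 3, the same fit as with any UMI or a cut over all libraries. It also turned to -0.065 (no filter) and -0.03 (without library 1). With no filter on low counts the 5 other contractile genes passed as lower (Acta2 -1.74, edgeR adjusted p = 1.21e-05; Cnn1 -1.65, 0.0383). Mean levels in Pericytes without cells with endothelial UMIs were 611 CPM for Des and 1103 CPM for Notch3. The causes were not tested. In the Myh11 split the sign of each of the 8 tested members was the same in every alternative in which it was tested. Not run for want of sums of 5 cells in 3 libraries were Myh11 UMIs against none, the channel split after thinning, and the channel split without cells with endothelial UMIs at 5 cells. Depth limits Cnn1, Kcnj8 and Abcc9, with 155, 80 and 116 UMIs in Pericytes, and the 11 Pericytes cells of library 3.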
